A study of Mus musculus with 88 samples.

Results

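A set of 69 genes stood lower in the blood of pristane-treated lupus-prone mice than in untreated mice at week 14, while the groups lay closer together for each of these genes, or in the opposite order, at the 4 earlier time points. The set was defined on these arrays, from 17097 genes that each had a probe set assigned to that gene alone, with the probe set of the highest mean standing for the gene. A gene was kept when its log2 signal averaged 6 or more over all arrays, when the mean of the pristane arrays lay 1 or more below the mean of the untreated arrays at week 14, and when the same difference stayed above -0.5 at weeks 2, 4, 8 and 12. The genes Cbl and Ikzf3 and 8 symbol prefixes (Zfp, Rbm, Eif, Nduf, Psm, Usp, Ddx and H2-) had been set aside. Of 5593 genes with a mean of 6 or more, 194 reached the week 14 bound, 74 of these also met the bound for the other weeks, and 5 of the 74 were set aside by symbol. A difference of 1 on the log2 scale is a change of 2-fold.

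All mice were female SNF1, the F1 hybrid of SWR and NZB, a cross that develops lupus nephritis with age. Pristane, a hydrocarbon oil, was injected once into the peritoneum at 9 weeks of age, and whole blood was taken 2, 4, 8, 12 or 14 weeks later, with age-matched untreated mice at each of these times and 8 mice per group. An eleventh group of 8 untreated mice, 36 weeks old, had spontaneous disease and was chosen by its proteinuria. Weeks 2 to 14 are times after the injection. No healthy mice 36 weeks old were measured, so age and disease cannot be told apart in that group.

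The roles below were assigned once the members were known and have no background share. Transcription by RNA polymerase II needs chromatin remodelling enzymes, elongation factors and the Mediator complex, and the transcript is then spliced, exported, translated and finally degraded after its tail has been shortened. Cyclic AMP, made by adenylyl cyclases, activates protein kinase A, which in turn activates CREB family transcription factors. In blood these genes are expressed by leukocytes of several kinds, while mature red cells carry mostly globin and related transcripts. In RNA from whole blood, fewer cells of a type and less RNA per cell cannot be told apart.

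The arrays were alike in most respects but not in all. On the pristane array of week 4 replicate 1, the mean log2 signal of 11 interferon response genes was 6.66, inside the untreated range of that week, while every other pristane array of the 5 weeks had at least 8.48. Without that array 65 of the 69 genes still met the rule. The interquartile range of all probe sets on an array averaged 3.53 in untreated mice at week 14 and 3.13 to 3.45 in the other 10 groups. The labels name no plate, scan or batch.

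The membership bounds cut through a continuum. Crebrf, Rfc1, Med1 and Hadh lay just inside the week 14 bound, with differences of -1.005, -1.003, -1.0004 and -1.0002. Sms at -0.9997 and Rnf139, Rabggtb and Smim1 at -0.99 each lay just outside it. Hnrnpul2 and Tsnax, with lowest differences of -0.497 and -0.496 at the earlier weeks, were just inside the bound for those weeks, and 3830406C13Rik at -0.507 and Ipo5 at -0.503 just outside. Zbed4, with a mean of 6.05, and Slc39a10, with 6.07, were the dimmest genes kept, while Alg2 and L3mbtl3, both at 5.97, were left out for their level. A further 114 genes were lost only to the bound on the other weeks and 46 only to the level.

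Because the week 14 values chose the genes, they are described here without a test. The median difference at week 14 was -1.11 over the 69 genes, from -1.996 to -1.0002, against -0.10 over the 5353 genes that met the level and symbol criteria. In that background 3.42% of genes reached -1 or lower. All 8 pristane arrays lay below all 8 untreated arrays for 24 of the 69 genes, a separation that 2.93% of the 5353 genes showed. At weeks 2, 4, 8 and 12 the median differences of the set were -0.14, -0.15, -0.19 and -0.12. None of the 69 genes had its pristane arrays below all untreated arrays at those weeks (0.355%, 0.168%, 0.243% and 0.168% of the background). The rule had also bounded the differences of those weeks from below, and such separation was rare in the background. The absence was therefore largely fixed in advance and tests nothing. The mean signal of the set per array ran from 6.21 to 7.24 in pristane mice at week 14 and from 7.55 to 8.14 in untreated mice of that week.

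**Figure D1:**
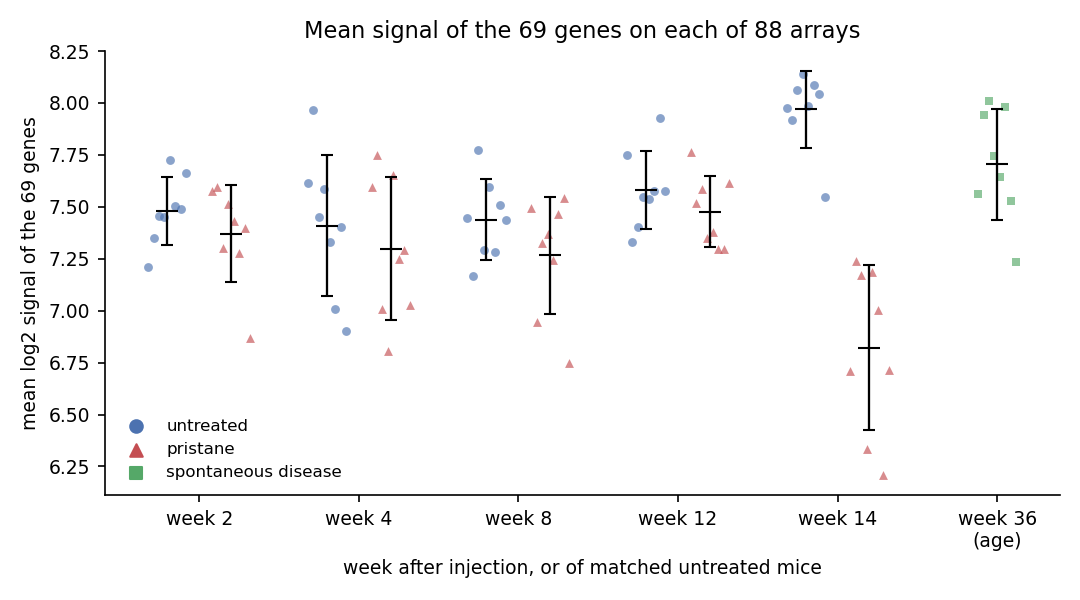
Mean log2 signal of the 69 genes (vertical axis) on each of 88 arrays, by week (horizontal axis), with untreated arrays as circles, pristane arrays as triangles and spontaneous disease as squares; bars give mean and SD (n = 8). The pristane arrays of week 14, between 6.21 and 7.24, lie below every untreated array of that week, between 7.55 and 8.14, which are themselves the highest of the 5 untreated groups.

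Transcription and chromatin factors formed the largest role, with 17 of the 69 genes and a median week 14 difference of -1.13. The lowest difference of the whole set belonged to Rprd2, a protein that binds the tail of RNA polymerase II (GRCm38.p6, chr3:95759871-95819744). Its 8 pristane arrays of week 14 ran from 3.68 through a median of 4.98 to 6.04, and the untreated arrays from 6.49 through 6.92 to 7.21. Every pristane array was below every untreated one, and the difference was -1.996, or 3.99-fold. Rprd2 had been nearly level until then, at 6.28 ± 0.35 (SD, n = 8) in pristane and 6.34 ± 0.20 in untreated mice at week 12.

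Creb1, the cyclic AMP response factor (chr1:64532794-64604548), ran from 4.85 through 6.48 to 7.31 in pristane mice and from 6.14 through 7.62 to 7.96 in untreated mice. The groups overlapped, since only 3 pristane arrays fell below the lowest untreated array, and that array was itself far under the others of its group. The difference was -1.34, with -0.43 at week 12. Chd1, a remodeller that spaces nucleosomes along transcribed genes (chr17:15704967-15772612), ran from 4.79 through 5.86 to 6.25 with pristane and from 6.74 through 6.90 to 7.47 without. Its groups did not overlap and differed by -1.15.

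RefSeq promoters (GRCm38.p6, 250 bases before to 50 after the start) were given for 52 of the 69 genes, 75.4%, which is too few for a comparison of the set with other genes. The cyclic AMP response element is shown because both Adcy7 and Creb1 are members. It was picked from several searched motifs for that reason, and a link between it and the set was not tested. The letters TGACGTC, searched on both strands, stood in 5 of the 52 member promoters and in 3.21% of 32851 promoters. The stretches around them, with the matched letters in capitals (TGACGTCA holds a match on each strand, overlapping), were as follows.
Abce1, chr8:79711723-79711770, minus strand: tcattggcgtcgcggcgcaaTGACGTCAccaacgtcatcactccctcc
Lmbrd1, chr1:24678526-24678573, plus strand: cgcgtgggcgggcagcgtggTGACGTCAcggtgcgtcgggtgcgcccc
Ints7, chr1:191575534-191575581, plus strand: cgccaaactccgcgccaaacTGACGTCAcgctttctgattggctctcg
Stxbp3, chr3:108840583-108840630, minus strand: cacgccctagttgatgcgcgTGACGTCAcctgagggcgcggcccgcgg
Rfc1, chr5:65335641-65335687, minus strand: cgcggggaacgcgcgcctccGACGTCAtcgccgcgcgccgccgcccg
These 5 genes differed by -1.19, -1.13, -1.12, -1.12 and -1.003 at week 14, within the range of the set. A match is a description of letters and not of binding. The promoter of Rprd2 (chr3:95818904-95819203, minus strand) is printed as that of the gene with the lowest difference, with matches to GGGCGG or CCGGAA on either strand in capitals.
Rprd2: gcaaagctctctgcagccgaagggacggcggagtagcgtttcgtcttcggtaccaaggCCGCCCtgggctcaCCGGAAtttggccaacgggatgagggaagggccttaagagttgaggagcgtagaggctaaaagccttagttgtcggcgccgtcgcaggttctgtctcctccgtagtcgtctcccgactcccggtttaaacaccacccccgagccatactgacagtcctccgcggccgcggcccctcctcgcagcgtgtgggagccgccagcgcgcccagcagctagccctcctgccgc
GGGCGG was found in 35.7% and CCGGAA in 14.9% of all promoters of this length, and in 40 and 17 of the 52 member promoters. A higher share among members was thus not particular to the cyclic AMP element, and none of these shares was tested.

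Smarcad1, a remodeller of the SWI/SNF-like family, separated fully as well, with 4.99 to 6.46 in pristane and 6.87 to 7.38 in untreated mice. So did Med1, a subunit of Mediator, with 7.38 to 8.20 against 8.61 to 9.24, and Crebrf, a regulator of a CREB-related factor, with 7.85 to 8.80 against 9.27 to 9.65. Nr3c1, the glucocorticoid receptor, had 7.26 to 8.33 with pristane and 8.72 to 9.16 without, and Pura, a nucleic acid binding protein, 5.64 to 7.48 and 7.68 to 8.04. These 4 genes had differences between -1.03 and -1.0004, close to the bound, yet no array of one group reached into the other.

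The other 10 transcription and chromatin genes overlapped between the groups. They were the elongation factor Iws1 (-1.19), the histone reader Spin1 (-1.18), Usf3 (-1.16), Qrich1 (-1.15), the co-repressor Irf2bp2 (-1.13), the repressor Zeb1 (-1.06), the histone chaperone Anp32e (-1.06), Zbed4 (-1.04), the circadian repressor Nr1d2 (-1.03) and Creb1 itself. Anp32e was the brightest gene of the set, at a mean of 9.90 in pristane and 10.95 in untreated mice at week 14.

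Genes of RNA processing, ribosome production and translation numbered 13, with a median of -1.12, and only 2 of them separated fully. One was Sf1, which binds the branch point of introns, with 7.37 to 9.24 in pristane and 9.25 to 9.95 in untreated mice, a gap of 0.01. The other was Tsnax, the partner of translin, with 6.50 to 7.21 against 7.29 to 8.40.

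Nol11, which acts in ribosome production, ran from 4.22 through 6.26 to 6.95 in pristane and from 6.66 through 7.45 to 7.65 in untreated mice, a difference of -1.18 with overlap. Cnot6l, a deadenylase that shortens mRNA tails, differed by -1.13 and Ints7, a subunit of the Integrator complex that ends nascent transcripts, by -1.12. Both overlapped, with 6 and 4 pristane arrays below the lowest untreated array. Trmt6, a subunit of a tRNA methyltransferase, differed by -1.04 and Hnrnpul2, an RNA-binding protein, by -1.01. The remaining members of the role were the ribosome recycling factor Abce1, Nol8, Gpatch8, the histone mRNA binding protein Slbp, the RNA polymerase I factor Rrn3 and the RNA-binding protein Zmat3, between -1.19 and -1.08.

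Among 12 genes of membrane traffic, glycans and ion transport the median was -1.19, and 5 separated fully. Hip1, an adaptor of clathrin and actin in endocytosis (chr5:135406496-135545323), ran from 5.98 through 6.30 to 7.09 with pristane and from 7.40 through 7.78 to 8.32 without, a difference of -1.39. Necap1, another component of clathrin-coated vesicles, ran from 5.61 through 6.64 to 7.14 and from 7.71 through 7.81 to 7.99. The untreated arrays of Necap1 spread by an SD of only 0.11 against 0.55 with pristane. Efr3a, which anchors a lipid kinase at the plasma membrane, had 5.23 to 6.87 and 7.01 to 8.00.

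Lmbrd1, which acts in lysosomal cobalamin export, and Edem3, which trims glycans of misfolded glycoproteins in the endoplasmic reticulum, also had no overlap, at -1.13 and -1.04. Nus1, a subunit of the enzyme that makes dolichol, ran from 4.10 through 6.06 to 6.66 in pristane and from 6.23 through 7.09 to 7.60 in untreated mice. The groups of Nus1 overlapped and differed by -1.30. Tvp23b, a Golgi membrane protein, differed by -1.35, the glucosylceramide synthase Ugcg by -1.24 and Stxbp3, a regulator of membrane fusion, by -1.12. The zinc transporters Slc39a10 and Slc30a5 differed by -1.03 and -1.01, and the calcium-dependent membrane binding protein Anxa4 by -1.01.

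Of 7 signalling genes, with a median of -1.10, Ppm1h and Stap1 separated fully. Adcy7, an adenylyl cyclase (chr8:88272190-88329965), had the second lowest difference of the set. Its pristane arrays ran from 6.22 through 7.60 to 8.48 and its untreated arrays from 8.25 through 9.25 to 9.77, with 6 pristane arrays below the lowest untreated one and a difference of -1.67, or 3.18-fold. Adcy7 differed by -0.27 at week 12 and by -0.50 at week 8.

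Ppm1h, a protein phosphatase, ran from 5.89 through 8.06 to 8.74 and from 8.78 through 9.20 to 9.73, a difference of -1.39. Stap1, an adaptor of B cell receptor signalling, had 5.92 to 7.54 against 7.64 to 8.37 and a difference of -1.18. The casein kinase Csnk1g3 differed by -1.10, Arap2 by -1.07, the pseudokinase Trib2 by -1.07 and Pik3r1, the regulatory subunit of phosphoinositide kinase, by -1.04. These 4 overlapped.

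Genes of DNA replication, repair and the cell cycle numbered 6. Pole4, a small subunit of DNA polymerase epsilon, had 5.48 to 6.96 in pristane and 6.98 to 8.18 in untreated mice, and Rfc1, the large subunit of the sliding clamp loader, 6.95 to 8.21 and 8.31 to 9.20. Cops8, a subunit of the COP9 signalosome, also separated. Shprh, a ubiquitin ligase of replication forks, overlapped, from 4.36 through 5.39 to 6.38 with pristane and from 5.66 through 6.72 to 7.10 without. Cyclin D2 (Ccnd2) differed by -1.11 and Fbxw7, which selects cell cycle proteins for degradation, by -1.04.

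The 6 mitochondrial and metabolic genes ranged from -1.21 to -1.0002. They were Lyrm4 of iron-sulfur cluster assembly, the outer membrane protein Synj2bp, the phosphatase Pgam5, the sugar phosphatase Tigar, Cyb5b of the outer membrane and the fatty acid oxidation enzyme Hadh, and only Tigar had no overlap, at 4.32 to 6.80 against 6.92 to 7.67. Of 3 cytoskeletal genes, Pafah1b1, a regulator of dynein, and Epb41l2, a relative of the red cell membrane skeleton protein, separated fully, at -1.08 and -1.07. Spast, a microtubule severing enzyme, did not, and had the widest spread of the set among pristane arrays, from 3.45 to 7.29. Fam107b (-1.25), the predicted gene Gm10336 (-1.21) and Kantr (-1.04) were put in no role.

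Only 2 members are effector molecules of immune cells. Igkv6-15, a variable segment of the immunoglobulin kappa light chain, ran from 6.59 through 7.22 to 7.98 with pristane and from 8.09 through 8.81 to 9.12 without. Its groups did not overlap and differed by -1.46, though a probe set for one variable segment may also take up RNA of near-identical segments. Cybb, the catalytic subunit of the phagocyte NADPH oxidase (chrX:9435252-9487766), ran from 6.93 through 7.56 to 8.14 and from 8.26 through 8.65 to 9.17, a difference of -1.10. By this probe set the pristane mean of Cybb had been above the untreated mean at every earlier week, by 0.37, 1.16, 0.07 and 0.80 at weeks 2, 4, 8 and 12, which its further probe sets described below did not all show.

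**Figure D2:**
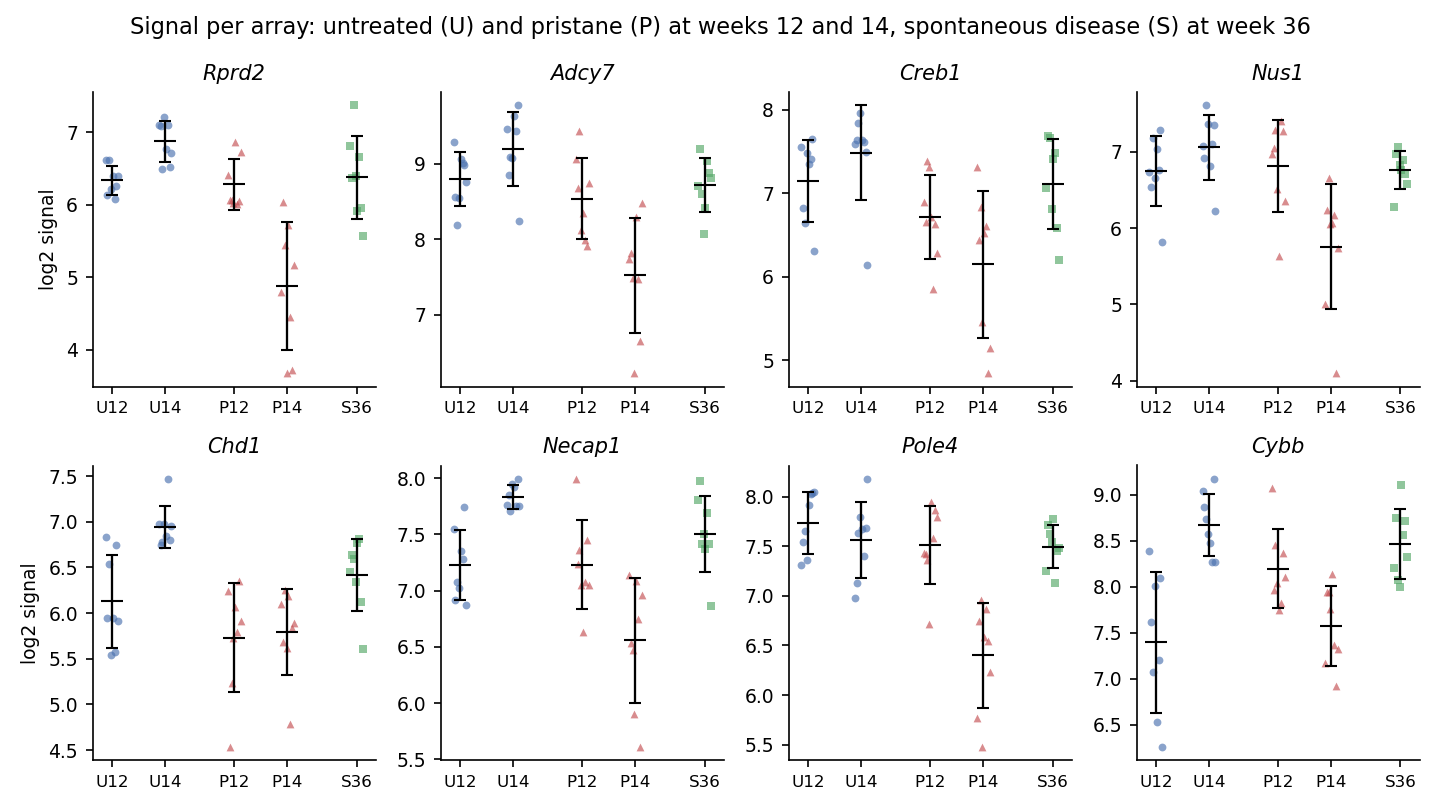
Log2 signal (vertical axes) of 8 of the genes on each array of untreated (U, circles) and pristane (P, triangles) mice at weeks 12 and 14 and of spontaneous disease (S, squares) at week 36; bars give mean and SD (n = 8). Rprd2 drops only in P14, Chd1 rises in U14 and is as low in P12 as in P14, and Cybb is lowest in U12.

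The week 14 difference was made up of a movement in each arm. From week 12 to week 14 the untreated mean of the set rose by a median of 0.39 (0.13 over the 5353 background genes), and the pristane mean fell by a median of 0.65, while the background median in pristane mice was 0.03. Both directions were shared by 65 genes, and the pristane fall was the larger in 52. The rule favours genes that are high in untreated and low in pristane mice at week 14, so these counts describe the set and test nothing. In 40 genes the pristane mean fell by 0.5 or more while the untreated mean moved by less than 0.5, in 7 genes the untreated mean rose by 0.5 or more with a pristane change under 0.5, in 10 the untreated mean rose and the pristane mean fell by 0.5 or more, and in 11 neither moved as far. In 1 gene, Anp32e, both means fell by 0.5 or more.

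Rprd2 fell by 1.40 with pristane and rose by 0.54 without, and Adcy7 fell by 1.01 and rose by 0.39. In Anp32e, Pole4 and Trib2 the untreated mean fell too, by 0.51, 0.18 and 0.10, while the pristane mean fell by 1.40, 1.12 and 0.72. Chd1 was the opposite case, with an untreated rise of 0.81 and a pristane change of 0.06. Between these weeks Chd1 was therefore not lowered in pristane mice, whose mean was 5.73 at week 12 and 5.79 at week 14. From week 2 to week 12 its mean had changed by -0.39 in pristane and by -0.05 in untreated mice, neither called. In Cybb both arms moved, the untreated mean from 7.39 up to 8.67 and the pristane mean from 8.19 down to 7.57, which was still above the untreated means of weeks 2, 4 and 12.

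Untreated mice at week 14 had the highest of the 11 group means for 63 of the 69 genes, and pristane mice at week 14 the lowest for 59. Both held for 54. The rule favours genes high in untreated and low in pristane mice at week 14. These counts largely follow from it and test nothing, and their share over the background was not counted. Set against untreated mice of week 12, the pristane mice of week 14 were lower in 68 of the 69 genes, Cybb being the exception at 0.18. In the background 2673 of 5353 genes were lower. The medians were -0.76 over the set and 0.00 over the background. The low pristane values of week 14 had helped to choose the genes, so this too is a description. Only 8 genes of the set then reached -1 or lower, against 96 of the 5353 background genes. Those 8 were Anp32e at -1.56, Rprd2 at -1.46, Pole4 at -1.34, Adcy7 at -1.28, Trib2 at -1.16, Igkv6-15 at -1.15, Ugcg at -1.01 and Creb1 at -1.005.

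**Figure D3:**
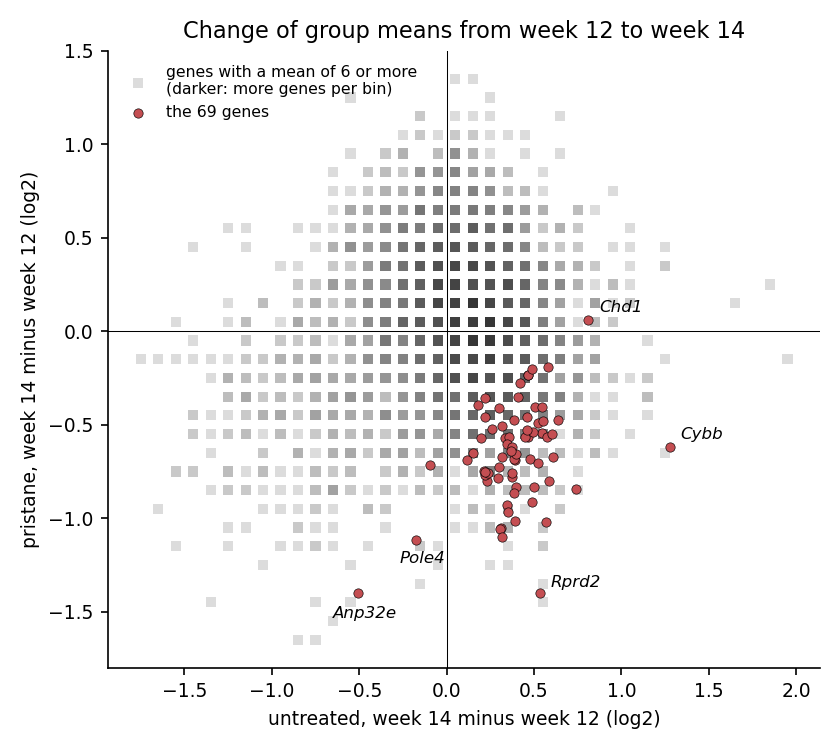
Change of the group mean from week 12 to week 14 (log2) in untreated mice (horizontal axis) and pristane mice (vertical axis) for the 69 genes (points) over all genes with a mean of 6 or more (grey squares, binned, darker for more genes). Most of the 69 lie at the lower right, with an untreated rise near 0.39 and a pristane fall near 0.65, while Chd1 and Cybb lie far to the right and Anp32e and Pole4 to the left of 0.

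The signal of the set also moved with the spread of the array. Within the 11 groups, the mean signal of the set correlated with the interquartile range of all probe sets at r = 0.87 (88 arrays), at r = 0.96 over the 8 pristane arrays of week 14 and at r = 0.86 over the 8 untreated arrays of that week. These are descriptions over arrays that share the values of the set itself, and they carry no p. The interquartile range ran from 2.99 to 3.503 in pristane and from 3.09 to 3.79 in untreated mice at week 14. At nearly the same range, 3.503 and 3.48, the pristane array of replicate 5 had a mean signal of 7.19 and the untreated array of replicate 2 had 7.92. With the interquartile range as a covariate, all 69 differences stayed below 0 with a median of -0.80 (0.08 in the background), and 9 were at -1 or lower. Those 9 were Rprd2 at -1.61, Anp32e at -1.42, Pole4 at -1.37, Adcy7 at -1.33, Lyrm4 at -1.31, Igkv6-15 at -1.25, Fam107b at -1.19, Hip1 at -1.13 and Med1 at -1.06. The part of the array spread in the week 14 difference was not tested.

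**Figure D4:**
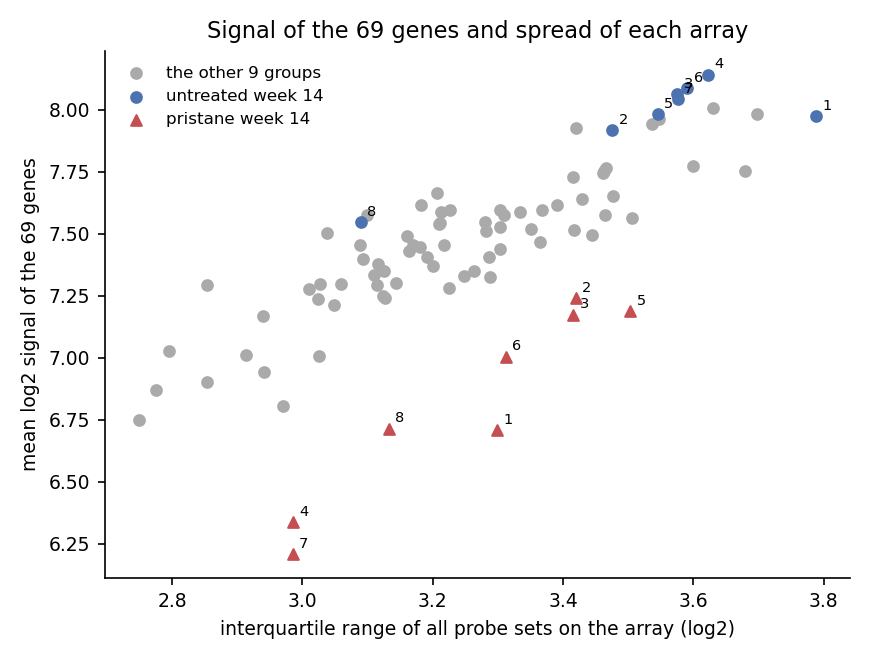
Mean log2 signal of the 69 genes (vertical axis) against the interquartile range of all probe sets (horizontal axis) for 88 arrays, with replicate numbers beside the arrays of week 14. Arrays with a wider range have a higher signal (r = 0.87 within groups), and the pristane arrays of week 14 (triangles) lie below the other arrays of similar range.

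Cell markers moved at week 14 as well, and their part in the result was not tested. For erythroid genes, 1 of 8 had a difference below 0, and their mean signal was 8.55 to 9.94 in pristane and 7.84 to 8.89 in untreated mice. Within the pristane group of week 14 (8 arrays) the set correlated with the erythroid mean at r = -0.91, with the T cell mean at r = 0.68 and with the NK and cytotoxic mean at r = 0.67. For the B cell, neutrophil, monocyte and platelet means r was 0.13, 0.20, 0.51 and -0.46. Of 8 NK and cytotoxic genes 7 were below 0, with a median of -0.60 and list means of 5.42 to 6.82 against 5.84 to 7.41. None of 6 platelet genes was below 0, with 10.56 to 11.51 against 9.92 to 10.54, and none of 10 neutrophil genes, with 8.67 to 10.22 against 7.73 to 8.49. Of 9 B cell genes, 8 were below 0, with 7.19 to 8.68 against 8.27 to 8.92, and of 10 T cell genes 7 were, with 7.15 to 8.03 against 7.03 to 8.40. The B cell and T cell medians were -0.88 and -0.29. Of 5 monocyte genes 3 were below 0, with a median of -0.02. Of 5 genes of kidney, liver, muscle or brain, which should be absent from blood, none averaged 6 or more over all arrays, and their median difference was 0.40. Their mean correlated with the signal of the set at r = -0.91 within the pristane group of week 14 and at r = -0.86 within the 11 groups (88 arrays). Neutrophil gene means had been higher with pristane at every week, by a median of 1.44 to 2.23 at weeks 2 to 12 and 1.71 at week 14, whereas the platelet and erythroid medians were 1.19 and 0.90 at week 14 and at most 0.21 and 0.31 before. At weeks 2 to 12 the B cell medians were -0.54 to -0.44 and the T cell medians -0.46 to -0.03. The NK and cytotoxic medians were -0.48, -0.54, -0.83 and 0.20 at weeks 2, 4, 8 and 12.

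RNA quality, read as the 3′ minus 5′ signal of the Gapdh control probe sets, was 1.70 to 2.61 in pristane and 1.73 to 2.33 in untreated mice at week 14. The means of these groups were 2.13 and 2.02, with 2.07 in spontaneous disease, against 1.43 to 1.84 in the groups of weeks 2 to 12. For actin the means were 1.35, 1.52 and 1.37, against 0.98 to 1.28. The part of RNA quality in the differences of the set was not tested. The Gapdh measure correlated with the signal of the set at r = 0.22 within groups (88 arrays), and the same measure for actin at r = 0.43. For the transferrin receptor it averaged 2.31 in pristane and 1.78 in untreated mice at week 14, and correlated at r = -0.30 within groups and r = -0.67 within pristane week 14. Gene length, which the rule did not use, had a median of 41.2 kb in the set and 23.2 kb over the 5337 background genes found in the reference.

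The pristane mice of week 14 were less alike than the untreated ones. The median SD over the set was 0.63 in pristane and 0.31 in untreated mice at week 14, against 0.46 and 0.33 over the background. At week 12 it was 0.43 and 0.35. Replicates 4 and 7 had the lowest mean signals, 6.34 and 6.21, and also the lowest interquartile ranges of the group, 2.99 each. Without these arrays the mean difference of the set was -0.97 in place of -1.15.

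Outside week 14 the genes of the set varied together only in part. Over the 72 arrays of the other 9 groups, pairs of the 69 genes had a median correlation of 0.33 after group means were removed, and pairs of background genes 0.12. After regression on the interquartile range these medians were 0.10 and 0.01. The genes correlated with that range at a median r of 0.53 (0.43 in the background), with Pole4, Anp32e, Lyrm4 and Med1 below 0.

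Other probe sets for the same genes gave smaller differences. In all, 52 genes had 113 further single-gene probe sets, of which 91 differed below 0 and 13 by -1 or lower at week 14, with a median of -0.33. Over the 35 that averaged 6 or more, 32 were below 0 and 7 at -1 or lower, with a median of -0.61, and over the 78 dimmer ones the median was -0.28. Cybb was at -1.98 and -0.77 by its further probe sets, and Creb1 at -1.08 by the only bright one of its 5. The dimmer of the further Cybb probe sets was also below 0 at the earlier weeks, by -0.42, -0.11, -1.12 and -0.12 at weeks 2, 4, 8 and 12, and so would not have met the rule. The bright Creb1 probe set, at -0.54 at week 8, would not have met it either. Bright probe sets of Ccnd2 were at -0.60 and -0.59 at week 12, and that of Csnk1g3 at -0.70 at week 12 and -0.08 at week 14. A dimmer one of Zeb1 was at -0.67, -0.80, -0.84 and -1.55 at the earlier weeks. The bright further probe set of Igkv6-15 was at -0.52 at week 4 and -1.12 at week 14. That of Pole4 was at -0.54 at week 8 and -0.63 at week 14, and the bright one of Pura at -0.51 at week 8. For such genes the limit to week 14 rested on the chosen probe set. At week 14 the further probe set of Adcy7 gave -0.30, and the only bright one of Rprd2 gave -0.69. Hip1 was at 7.61 in untreated and 7.59 in pristane mice by a further bright probe set, so its difference rested on 1 probe set. The 3 bright further probe sets above 0 belonged to Fam107b at 0.49, Nus1 at 0.41 and Pura at 0.34. Both further probe sets of Pura were above 0, the dimmer one at 0.12, although its member probe set separated the groups fully. Anxa4 at 0.45, Rfc1 at 0.08 and Nr1d2 at 0.02 were also above 0 by their only other probe set. These were dim, with means of 5.15, 5.11 and 2.96.

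Families of genes were counted whole by symbol pattern, over the 5353 background genes, of which the 69 are 1.29%. The set held 2 of 65 genes of the RNA polymerase II machinery (Rprd2 and Med1), 2 of 92 of splicing, 2 of 111 chromatin regulators, 2 of 53 of DNA repair and replication, 2 of 107 kinases, 2 of 79 phosphatases, 1 of 73 of mRNA stability, 1 of 28 of tRNA synthetases and modification, 1 of 185 of vesicle traffic and 1 of 170 ubiquitin enzymes. It held none of the nuclear pore, small GTPase regulator, centrosome, lysosome or mitochondrial ribosome families, and 16 of the 69 genes fell in any family. Of 29 lymphocyte markers none was a member, and their median difference was -0.87 at week 14 and -0.46 at week 12. Splicing, nuclear pore, chromatin, polymerase and mRNA stability families had medians of -0.36, -0.31, -0.30, -0.30 and -0.29 at week 14, against -0.10 in the background. At week 12 these medians were -0.18, -0.13, -0.14, -0.11 and -0.08, against -0.03. Those families were the lowest at week 14 after the lymphocyte markers. The remaining families had week 14 medians from -0.22 (DNA repair and replication) to 0.32 (lysosome and autophagy).

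Spontaneous disease allowed a test on arrays that the rule used only for the overall level. Mice of 36 weeks were compared with the mean of untreated mice at weeks 2, 4, 8 and 12 in the limma model. The untreated arrays of those weeks also entered the bound on the earlier weeks, so the comparison is not wholly independent of the rule. Of the 69 genes 5 were called at an adjusted p under 0.05, all higher in spontaneous disease, and 0 lower, where 8.93% of the background genes were called higher and 1.2% lower. The median difference was 0.22 in the set and 0.13 in the background. Arrays numbered 8 had the lowest interquartile range in 7 of the 11 groups. Without them 14 genes were called, 13 higher and Anp32e lower, and 16.2% of the background genes were called higher and 4.48% lower.

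Cybb ran from 7.99 through 8.44 to 9.10 in spontaneous disease, where the untreated means of weeks 2 to 12 lay between 6.45 and 7.76. It was higher by 1.37 (standard error 0.20, 95% confidence interval 0.97 to 1.77, limma adjusted p = 1.21e-05), or 2.58-fold, although single untreated arrays reached 9.11. Anxa4 ran from 6.73 through 7.28 to 8.16 and was higher by 1.05 (interval 0.55 to 1.56, limma adjusted p = 0.00741). Csnk1g3 was higher by 0.62 (limma adjusted p = 0.0331), Cyb5b by 0.69 (0.0386) and Stap1 by 0.56 (0.0399). The calls of these last 3 genes were lost when arrays were quantile normalized, with adjusted p of 0.0814, 0.0819 and 0.103, and all but that of Cybb were lost with the interquartile range as a covariate, with Anxa4 at 0.115.

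None of the 12 genes lowest at week 14 was called in spontaneous disease. Rprd2 had a difference of -0.03 (interval -0.41 to 0.34), Adcy7 of 0.00 (-0.37 to 0.37) and Creb1 of 0.01 (-0.41 to 0.42). Hip1, at 0.43 (0.11 to 0.74, limma adjusted p = 0.0833), and Necap1, at 0.37 (0.05 to 0.68, 0.136), had intervals above 0 and missed the threshold. Anp32e at -0.49 (limma adjusted p = 0.0969) and Pole4 at -0.40 (0.104) were the lowest of the set and missed the threshold. Compared with pristane mice of week 14, as a description only, mice with spontaneous disease had a higher mean for all 69 genes, with a median difference of 0.87. Against untreated mice of week 14 they had a lower mean for 68 of the 69, with a median of -0.27 (-0.03 in the background), so the sign of the shift of the set depended on the control week. The rule favours genes high in untreated and low in pristane mice at week 14. Both of these counts largely follow from it and test nothing.

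**Figure D5:**
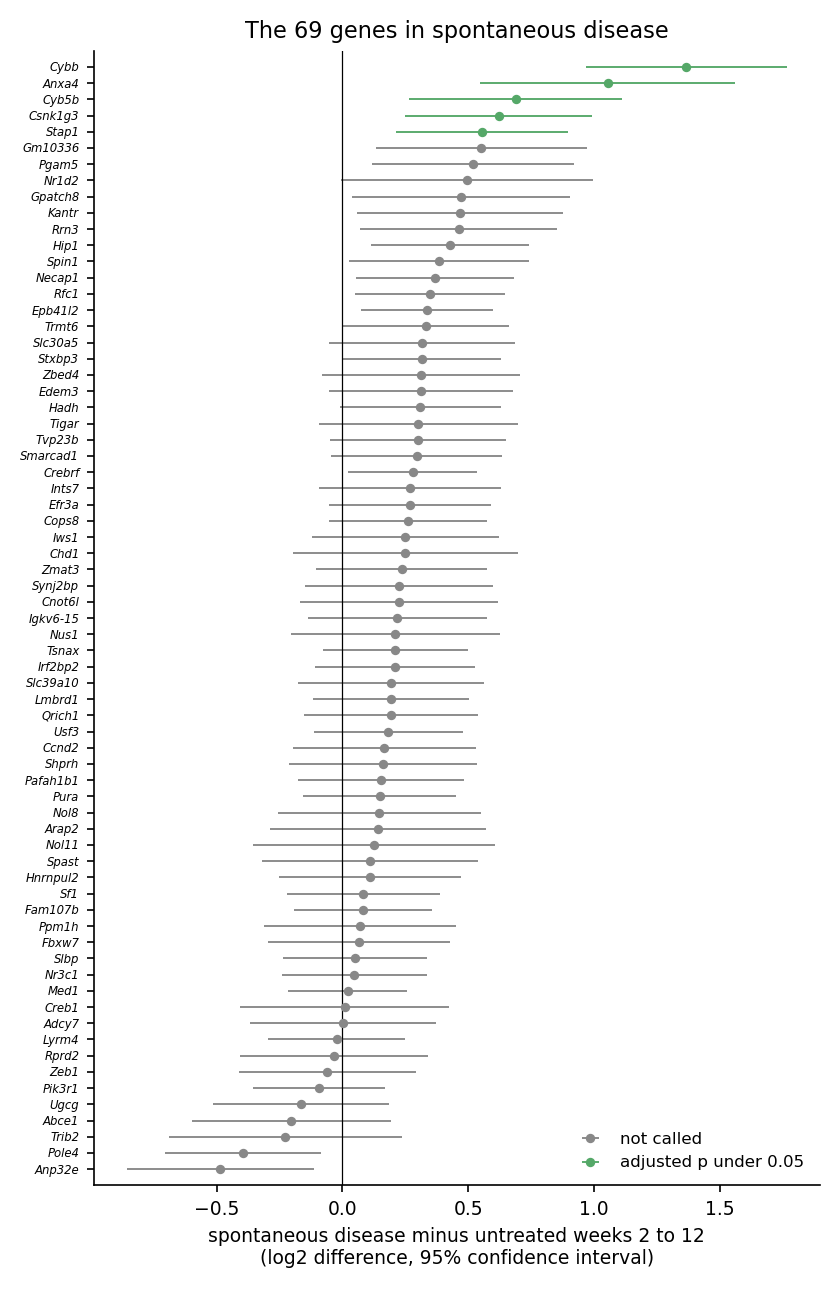
Difference in log2 signal between spontaneous disease and untreated mice of weeks 2 to 12 (horizontal axis) with 95% confidence intervals for each of the 69 genes (vertical axis, ordered by the difference), called genes in green. Cybb and Anxa4 stand apart at 1.37 and 1.05, and most intervals of the other genes include 0.

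Within each arm few genes of the set or of the background were called between weeks 2 and 12. The arrays of these weeks also entered the bound on the earlier weeks, so the comparisons are not wholly independent of the rule. In untreated mice the limma test called 0 of 69 genes (0.168% of the background higher and 0.0374% lower). The median difference was 0.10 in the set and 0.09 in the background. In pristane mice 1 gene was called, Cybb, which rose by 1.04 (interval 0.53 to 1.54, limma adjusted p = 0.0187), or 2.05-fold, where 2.13% of the background genes were called higher and 0.616% lower. Without pristane week 12 replicate 1 the rise of Cybb was 0.91 and the limma adjusted p 0.0565. In untreated mice Cybb differed by 0.61 between the same weeks (limma adjusted p = 0.277), and the difference between the arms was not tested.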

How the data were processed

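Gene expression was measured in whole blood of 88 mice, in 11 groups of 8, with 1 array per mouse. Blood stored frozen had been extracted with Trizol, and labelled RNA was put on HT-MG-430 PM plates. The authors deposited 1 log2 value per probe set and array, made by robust multi-array average (RMA), which corrects background and equalises the arrays' distributions, although the deposited arrays still differed in spread. They ran from 0.736 to 13.8, with array medians between 3.78 and 4.01, so no read depth applies and the number of arrays limits the precision. Which settings or batches RMA was run over is not given in the sources used here.

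Of 45141 probe sets, 104 controls were left out. A probe table assigned 28898 sets to 1 gene and 551 to several, and 15588 were not listed. The 3 tested contrasts were not ones that the rule had bounded, although their arrays entered its level and some of its bounds. They were tested in 1 limma 3.58.1 model of the 11 group means (R 4.3.3, 88 arrays, 77 residual and 5.81 prior degrees of freedom). Benjamini-Hochberg adjustment was made over 45037 probe sets. Calls were made where this adjusted p was below 0.05. The step was tested on simulated data. Groups were taken from the labels. Further settings were tried for normalization, thresholds, covariates, probe sets, controls, single arrays and a replicate block.

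The genes, lists and tests were chosen with earlier results of these data known. Genes were named by a rule that took the 12 lowest week 14 differences, the lowest members of each family, the called members, the neighbours of each bound and members with 3 or more further probe sets. Other members are named to account for the whole set, after their values were seen, and the roles were assigned once the members were known. Promoters and gene positions came from RefSeq tables (GRCm38.p6), through Python 3.11.15.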

Additional observations from a re-analysis of the deposited data

Results flagged for a closer look

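Of 40 groups of 8 arrays screened for an array far from the others, 5 had one, and chance alone gives about 1 in 20. For the mean signal of the 69 genes, pristane week 2 replicate 8 lay at 6.87 with the other 7 arrays of its group between 7.28 and 7.60, and untreated week 14 replicate 8 lay at 7.55 with the others between 7.92 and 8.14. The same untreated array was the low one for Creb1, at 6.14 with the others between 7.49 and 7.96, and for Shprh, at 5.66 with the others between 6.56 and 7.10. It also had the lowest interquartile range of its group, 3.09. Ppm1h was at 5.89 on pristane week 14 replicate 7 and between 7.40 and 8.74 on the others. Leaving out untreated week 14 replicate 8 raised the number of genes that met the rule from 69 to 114.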

How the results depend on the processing

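Membership depended on the settings. The direction at week 14 had been set by the rule on these same arrays, so its persistence under most settings tests nothing. In place of 69 genes, 32 met the rule with the mean of all probe sets of a gene, 43 with a mean signal of 7 or more, 218 and 15 with a week 14 bound of -0.8 and -1.2, 33 and 119 with a bound of -0.3 and -0.7 at the other weeks, 25 with the interquartile range as a covariate (9 of the 69 among them) and 39 with untreated mice of week 12 as control (8 of the 69). Leaving out single week 14 arrays gave 48 to 114 genes, with 114 without untreated replicate 8 and 48 without pristane replicate 7. The mean difference of -1.15 became -0.76 with untreated week 12 as control and -0.44 over the other probe sets, and ran from -1.21 to -1.06 without single arrays. The sign turned for Anxa4 (0.45), Pura (0.23), Rfc1 (0.079) and Nr1d2 (0.017) by the mean of their other probe sets and for Cybb (0.18) with untreated week 12 as control. For Anxa4, Rfc1 and Nr1d2 those probe sets were dim, with means of 5.15, 5.11 and 2.96 over all arrays. Centring the arrays on their medians gave 92 genes and quantile normalization 54, with mean differences of -1.18 and -1.09.

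The 5 calls in spontaneous disease became 2 with quantile normalization or a bound of more than 2-fold (Cybb and Anxa4 in both), 2 with the interquartile range as covariate (Cybb, higher, and Abce1, lower) and 1, Cybb, with all 5 untreated weeks as control. Without single arrays they ran from 2 to 7, with 2 without spontaneous replicate 4 or 6 and 3 without replicate 2, 3 or 5. The call of 1 gene in pristane mice ran from 0 to 1, being lost without replicate 1 of week 12. With the replicate block the counts of calls remained 5, 0 and 1. Each group held every replicate number once, so the block could not change the 69 genes or the mean difference of -1.15. Only 3 of 8 same-numbered pairs of week 14 arrays correlated over 0.1, so the numbers were not taken as pairs, but they were not without pattern: arrays numbered 8 had the lowest interquartile range in 7 of 11 groups. Leaving these arrays out of every group, an alternative chosen after seeing the data, gave 110 genes (60 of the 69 among them), a mean difference of -1.19 and 14, 0 and 1 calls. Cause was not tested for any of these changes.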
